A study of Glycine max with 12 samples.

Results

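D1 (Glyma.01G214600, chromosome 1) and D2 (Glyma.11G027400, chromosome 11) are the paired STAY-GREEN loci of soybean. Both were selected by locus, and they are 2 of the 52660 loci in the deposited count table. The 12 RNA libraries came from the third leaf of plants grown under normal conditions, 3 in each of 4 groups. The study describes 3 plants per treatment and does not state whether the same plants were sampled at both ages. BR16 V3 and BR16 R6 were leaves of the untransformed cultivar BR16 at 20 and 80 days after germination, and GmNAC81-3 V3 and GmNAC81-3 R6 were leaves of a transgenic line in the BR16 background at the same ages. GmNAC81-3 carries the NAC transcription factor gene GmNAC81 under the 35S promoter, which is active in most plant tissues, and it is 1 transgenic line, so an effect of the transgene cannot be told apart from an effect particular to that line. Libraries of the young and of the old leaves were also sequenced in separate sets, and an effect of age cannot be told apart from one of the set. The comparisons ask whether the levels of D1 and D2 differed between genotypes at each stage, and between the young and the old leaf within each genotype.

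STAY-GREEN proteins of plants are magnesium dechelatases of the chloroplast, which remove the central magnesium of chlorophyll a and so commit the pigment to breakdown. Leaves lacking them keep their green colour while they age. In soybean the function is carried by the duplicate pair D1 and D2, and plants in which both are lost have leaves and seeds that stay green at maturity. Downstream of this step, pheophorbide a oxygenase (PAO) opens the chlorophyll ring and gives the first breakdown product that is not green.

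The table listed 1 transcript model for each gene, Glyma.01G214600.1 and Glyma.11G027400.1, whereas 15054 loci had several. The counts of the model were therefore the counts of the gene, and no usage of models could be compared. Both genes were counted in every library, D1 with 80 to 2303 and D2 with 387 to 2026 counts, out of totals of 42797825 to 77952663 counts per library. D1 and D2 are duplicate copies, and their sequences were not compared here. How reads fitting both were assigned is not given in the sources used here, so the split of counts between them is uncertain to that extent. Lengths of the gene models in the build of the table were not used here, so the level of D1 is not set against that of D2, and only changes of their ratio between libraries are described.

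Several facts of the series bear on these values. GmNAC81 itself (Glyma.12G022700) had 5.76 ± 1.93 CPM (SD, n = 3; CPM is the count of a locus relative to the scaled total of its library) in BR16 V3 and 99.6 ± 76.7 CPM (SD, n = 3) in GmNAC81-3 V3, in the direction of the labels. At R6 GmNAC81 had 38.0 ± 24.9 CPM in BR16 and 56.4 ± 11.5 CPM in GmNAC81-3. This difference did not pass the test (log2 fold change 0.57, edgeR adjusted p = 0.958). From V3 to R6 GmNAC81 rose in BR16 (log2 fold change 2.72, edgeR adjusted p = 0.00578). In GmNAC81-3 its value was -0.82 (adjusted p = 0.300). Library sizes were scaled with TMM factors, which were 0.498 to 0.657 in GmNAC81-3 V3 and 0.931 to 1.45 in the other libraries. The 3 most counted loci of a library took 32.1 to 38.5% of its counts in BR16 V3 and 44.1 to 58.5% in GmNAC81-3 V3. Without TMM the median log2 fold change of all 39443 tested loci between genotypes at V3 moved to -1.08, so changes are read relative to the median locus. Rubisco activase (RCA), an abundant protein of photosynthetic leaf, had its highest group mean at Glyma.11G221000 in GmNAC81-3 V3, with 8275 CPM (4665 CPM without TMM). The means of this locus were 3882 CPM in BR16 V3, 248 CPM in BR16 R6 and 208 CPM in GmNAC81-3 R6. Group means of the RCA locus Glyma.14G067000 were lower, from 39.0 CPM in BR16 R6 to 471 CPM in GmNAC81-3 V3. Markers of other tissues were not analysed here.

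D1 had similar mean levels in all 4 groups with TMM scaling, and its libraries at V3 were much farther apart than those at R6. The BR16 V3 libraries held 5.05, 26.7 and 14.8 CPM (replicates 1, 2 and 3), and the BR16 R6 libraries 16.8, 18.9 and 15.02 CPM. In GmNAC81-3 V3 the values were 2.64, 33.4 and 32.3 CPM, and in GmNAC81-3 R6 18.03, 24.4 and 19.4 CPM. The lowest libraries of all 12 were thus the V3 libraries numbered 1 of both genotypes, the highest were the other GmNAC81-3 V3 libraries, and every R6 value lay inside the range of the V3 values. In order of their means the groups were BR16 V3 (15.5 ± 10.8 CPM, SD, n = 3), BR16 R6 (16.9 ± 1.97), GmNAC81-3 R6 (20.6 ± 3.37) and GmNAC81-3 V3 (22.8 ± 17.4). The values of each group overlapped those of its neighbour in this order. Without TMM the order changed, with D1 means of 13.1 ± 10.3 CPM (SD, n = 3) in GmNAC81-3 V3, 19.7 ± 16.1 in BR16 V3, 22.2 ± 1.91 in BR16 R6 and 24.8 ± 9.46 in GmNAC81-3 R6. The highest libraries were then BR16 V3 replicate 2 (36.9 CPM) and GmNAC81-3 R6 replicate 2 (35.2 CPM).

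With TMM scaling, the mean level of D2 was highest in GmNAC81-3 V3 and lowest at R6. The BR16 V3 libraries held 11.5, 26.1 and 21.6 CPM of D2, and the GmNAC81-3 V3 libraries 12.8, 69.4 and 52.1 CPM. At R6 the values were 12.6, 11.1 and 13.8 CPM in BR16 and 11.96, 20.3 and 10.7 CPM in GmNAC81-3. As for D1, the V3 library numbered 1 was the lowest of its group in both genotypes, and at 12.8 CPM the one of GmNAC81-3 lay among the R6 values. The group means were 12.49 ± 1.34 CPM (SD, n = 3) in BR16 R6, 14.3 ± 5.19 in GmNAC81-3 R6, 19.7 ± 7.45 in BR16 V3 and 44.74 ± 28.996 in GmNAC81-3 V3, and again neighbours in this order overlapped. Without TMM the V3 means of D2 were close, at 25.3 ± 15.8 CPM (SD, n = 3) in GmNAC81-3 and 24.2 ± 12.5 in BR16.

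**Figure D1:**
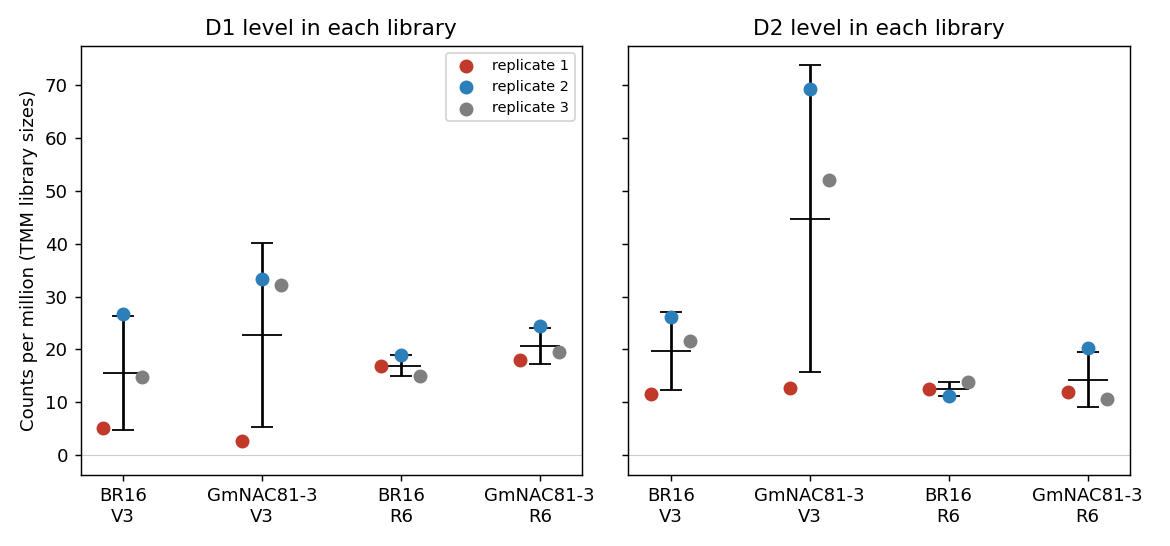
Level of D1 (left) and D2 (right) in each library, in CPM with TMM library sizes, by group. Points are libraries coloured by replicate number, and the black bar and whiskers are the mean and SD of 3 libraries. Replicate 1 is the lowest V3 library of both genes in both genotypes, and D2 in GmNAC81-3 V3 reaches 69.4 CPM.

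In the comparison of genotypes at V3 neither gene passed the test. Calls required a Benjamini-Hochberg adjusted p under 0.05 over all tested loci, from the quasi-likelihood test of edgeR, together with a log2 fold change beyond 1 in either direction. D2 had a log2 fold change of 1.18 in GmNAC81-3 V3 over BR16 V3 (standard error 0.50, 95% interval 0.08 to 2.28), with an adjusted p of 0.186 from edgeR (Benjamini-Hochberg). For D1 the log2 fold change was 0.55 (standard error 0.71, 95% interval -1.01 to 2.11, adjusted p = 0.682). Of all tested loci 3.44% were called in this contrast, and 24% had groups that did not overlap, while the groups of D1 and of D2 overlapped. The value for D2 turned on single libraries, being 0.71 without GmNAC81-3 V3 replicate 2 (edgeR adjusted p = 0.503) and 1.62, past the thresholds, without GmNAC81-3 V3 replicate 1 (adjusted p = 0.0203). Leaving out both V3 libraries numbered 1, chosen after seeing the data, gave 1.34 (adjusted p = 0.0297), and without TMM it was 0.06 (adjusted p = 0.926), which is 1.14 relative to the median locus of that fit.

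With leaf age D2 fell in GmNAC81-3, the only call for either gene in the 5 contrasts tested. Its mean went from 44.7 CPM at V3 to 14.3 CPM at R6, a log2 fold change of -1.64 (standard error 0.51, 95% interval -2.76 to -0.53) with a Benjamini-Hochberg adjusted p of 0.0209 from edgeR. The call stands beside 36.5% of all tested loci called in this contrast, with 20.1% of all tested loci called lower, so calls were common there. The groups overlapped, since the V3 library numbered 1 at 12.8 CPM was below the R6 library numbered 2 at 20.3 CPM. Leaving out 1 of the other V3 libraries of GmNAC81-3, or its R6 library numbered 1 or 3, raised the adjusted p to between 0.0577 and 0.0968. Without TMM the fitted value was -0.53 (adjusted p = 0.426), which is -1.59 relative to the median of all loci in that fit.

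In BR16 the same comparison of stages gave D2 a log2 fold change of -0.66 (standard error 0.50, 95% interval -1.75 to 0.43), with an edgeR adjusted p (Benjamini-Hochberg) of 0.311, in a contrast in which 34.7% of all tested loci were called. The stage effect in GmNAC81-3 minus that in BR16 was -0.98 for D2 (95% interval -2.53 to 0.56, adjusted p = 0.576), so a larger fall in GmNAC81-3 than in BR16 was not shown. Of all loci 0.071% were called for that difference. D1 showed no change with age that passed the test. Its log2 fold change was 0.13 in BR16 (95% interval -1.43 to 1.68, edgeR adjusted p = 0.903) and -0.14 in GmNAC81-3 (95% interval -1.70 to 1.42, adjusted p = 0.888). The intervals for D1 include changes of more than 2-fold in both directions.

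Between genotypes at R6 the estimates were close to 0. D1 had a log2 fold change of 0.29 (95% interval -1.27 to 1.84, edgeR adjusted p = 0.995, Benjamini-Hochberg) and D2 of 0.20 (95% interval -0.89 to 1.29, adjusted p = 0.996). Only 0.0989% of all tested loci were called in this contrast.

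The balance of the gene pair differed between V3 and R6 leaves, in the same direction in both genotypes. Age cannot be told apart from the sequencing set here, and the unknown assignment of reads fitting both copies bears on this balance. The share of D1 in the summed counts of D1 and D2 does not depend on library scaling, and counting intervals (Wilson, 95%) reached at most a few percentage points to each side. In BR16 V3 the shares were 30.5% (27.7 to 33.5), 50.6% (49.1 to 52.1) and 40.7% (38.7 to 42.7), and in GmNAC81-3 V3 they were 17.1% (13.985 to 20.8), 32.5% (30.7 to 34.4) and 38.3% (36.3 to 40.2). In BR16 R6 they were 57.3% (55.6 to 58.9), 63.0% (61.003 to 65.03) and 52.1% (50.2 to 54.1), and in GmNAC81-3 R6 60.1% (57.9 to 62.4), 54.7% (53.2 to 56.2) and 64.5% (62.3 to 66.6). Every R6 library thus had a higher share of D1 than every V3 library. D1 was above D2 in counts in all 6 R6 libraries and in 1 of the 6 V3 libraries. Separation of the stages was common among single loci. Levels did not overlap between V3 and R6 at 60.2% of all tested loci in BR16 and 52.2% in GmNAC81-3. How often the ratio of other locus pairs separates the stages was not computed. The Wilson intervals cover counting error only. They may be too narrow, since 75.0 to 86.1% of the counts below 50 in a library were even numbers, although the study's methods describe counts of fragments.

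Averaged over the genotypes, the ratio of D1 to D2 was 2.75-fold higher at R6 than at V3 (a log2 difference of 1.46). The exact two-sided permutation test, with stage exchanged within genotype, gave p = 0.005, the smallest that its 400 arrangements allow. The group means of the share were 40.6 ± 10.1% (SD, n = 3) in BR16 V3 and 57.5 ± 5.45% in BR16 R6, a 2.01-fold rise of the ratio. For GmNAC81-3 they were 29.3 ± 10.9% and 59.8 ± 4.90%, a 3.77-fold rise. Taken alone, each genotype reached p = 0.1 in the exact permutation test, the smallest p that 3 libraries against 3 allow. Leaving out each library in turn kept the log2 difference between 1.23 and 1.62 (exact permutation p from 0.005 to 0.01), and without both V3 libraries numbered 1 it was 1.07 (p = 0.01).

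No difference of the share between genotypes passed the test. The log2 ratio of D1 to D2 was lower by 0.32 in GmNAC81-3 over both stages, a 1.25-fold difference with p = 0.41 in the exact permutation test within stage. At V3 the difference was -0.77 (exact permutation p = 0.3) and at R6 it was 0.14 (p = 0.7). Between V3 libraries of equal number, the log2 ratio was lower in GmNAC81-3 in 3 of 3 pairs, by differences of -1.08, -1.09 and -0.15. Exact sign flips of these pairs, a permutation test added after seeing the data, gave p = 0.25, the smallest that 3 pairs allow.

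**Figure D2:**
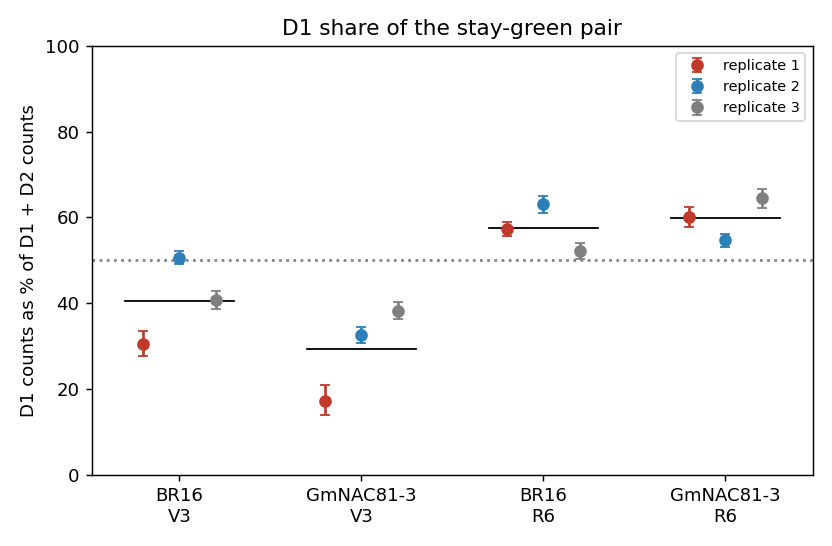
Share of D1 in the summed counts of D1 and D2 in each library, in percent, by group. Points are libraries with Wilson 95% intervals for counting error, horizontal bars are group means, and the dotted line marks equal counts. All 6 R6 libraries lie between 52.1 and 64.5%, above the V3 libraries at 17.1 to 50.6%.

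The spread between replicates was itself different at the 2 stages. At V3 the SD of log2 CPM within groups was 1.71 for D1 and 1.02 for D2, against a median of 0.445 over all tested loci. Only 1.54% of the tested loci varied at least as much as D1 at V3, and 11.7% at least as much as D2. Among the 6970 loci of similar level these percentages were 0.402 and 3.5. At R6 the SD was 0.200 for D1 and 0.364 for D2, against a median of 0.311 over all tested loci. Of these loci 72.1% varied at least as much as D1 and 41.9% at least as much as D2. Among the loci of similar level the R6 median was 0.206, and the percentages were 51.5 and 20.9. From the lowest to the highest library D1 spanned 12.6-fold in GmNAC81-3 V3 and 5.28-fold in BR16 V3, but 1.36-fold and 1.26-fold at R6. For D2 the spans were 5.43-fold and 2.26-fold at V3, and 1.89-fold and 1.24-fold at R6.

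The V3 libraries numbered 1 were the low ones for both genes. In BR16 V3, replicate 1 was 3.92-fold below the mean of replicates 2 and 3 for D1 and 2.06-fold below it for D2, on the log2 CPM scale. In GmNAC81-3 V3 it was 12.3-fold below for D1 and 4.69-fold below for D2. The median locus differed by -0.04 and -0.02 (log2) between the same libraries, and a difference as low or lower was found in 3.38% of loci for D1 and 10% for D2 in BR16 V3, and in 0.576% for D1 and 2.86% for D2 in GmNAC81-3 V3. D1 fell farther than D2 in these libraries, so their D1 shares of 30.5 and 17.1% were the lowest of their groups.

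D1 and D2 ranked their V3 libraries in nearly the same order. Across the 6 V3 libraries of both genotypes, Pearson's r of log2 CPM was 0.887 (exact permutation p = 0.0319, 0.0639 after Benjamini-Hochberg adjustment over the 2 relations computed) and Spearman's rho was 0.943 (exact permutation p = 0.0167, adjusted 0.0333). Without the V3 libraries numbered 1, which are the farthest from the median of D1, r was 0.840 over 4 libraries. These permutations exchanged libraries across the genotypes, and equal replicate numbers may pair the V3 libraries. The 6 V3 libraries may therefore not be exchangeable, and their p-values may be too small. Both genes share the scaling of a library, whose part in the relation was not tested, and 3 libraries per genotype were too few for an r within each. Across the 6 R6 libraries r was 0.544 (exact permutation p = 0.281, adjusted 0.281) and rho was -0.143 (p = 0.803), and without the libraries farthest from the median of D1, GmNAC81-3 R6 replicate 2 and BR16 R6 replicate 3, r turned to -0.985 over 4 libraries, so the sign at R6 rests on those libraries.

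**Figure D3:**
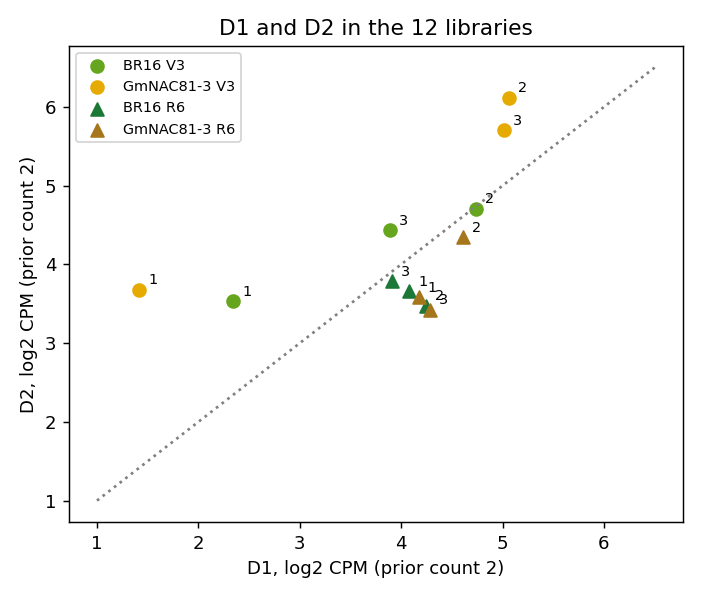
D1 against D2 in the 12 libraries, both as log2 CPM with a prior count of 2. Circles are V3 and triangles are R6 libraries, coloured by group and labelled with the replicate number, and the dotted line marks equal values. The R6 libraries lie together below the line, and the V3 libraries spread along a slope with both libraries numbered 1 at its low end.

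PAO, which acts after STAY-GREEN in chlorophyll breakdown, is represented by 2 loci, taken from a table of senescence genes that the study had selected on the V3 contrast of these samples. Of these 2 loci 0 were called in any contrast by edgeR or by DESeq2, and at an unadjusted p under 0.05 edgeR counted 1 between genotypes at V3, 1 with age in GmNAC81-3 and 0 in the other contrasts. Among all 39443 tested loci, 9244 had an unadjusted edgeR p under 0.05 between genotypes at V3 and 20846 with age in GmNAC81-3. Calls covered 3.44% and 36.5% of all tested loci in these contrasts. Glyma.11G192300 had 21.0 ± 4.21 CPM (SD, n = 3) in BR16 V3, 38.7 ± 11.8 in GmNAC81-3 V3, 20.3 ± 3.97 in BR16 R6 and 22.8 ± 4.47 in GmNAC81-3 R6. Its groups did not overlap between genotypes at V3 (log2 fold change 0.88, edgeR adjusted p = 0.0842, Benjamini-Hochberg), as was found at 24% of all tested loci. With age in GmNAC81-3 its adjusted p was 0.0375 at a log2 fold change of -0.76, short of the fold limit. Glyma.12G082100 had 20.3 ± 6.49 CPM in BR16 V3, 31.1 ± 8.86 in GmNAC81-3 V3, 22.6 ± 0.956 in BR16 R6 and 25.8 ± 7.58 in GmNAC81-3 R6, with overlapping groups throughout. The median log2 fold change of both PAO loci was 0.75 between genotypes at V3 and -0.51 with age in GmNAC81-3, against -0.04 and 0.03 over all tested loci. The V3 libraries used in the selection enter both medians, so neither is independent evidence.

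Other senescence loci of the same table, added after seeing the data, give the setting in which D1 and D2 were measured. PORA, a protochlorophyllide reductase of chlorophyll synthesis (Glyma.06G247100), rose with age from 10.9 to 136 CPM in BR16 (log2 fold change 3.65, edgeR adjusted p = 0.000968, Benjamini-Hochberg) and from 2.82 to 175 CPM in GmNAC81-3 (5.94, adjusted p = 7.19e-05). All 4 RCA loci fell with age in both genotypes, by 2.30 to 3.97 on the log2 scale in BR16 and by 2.81 to 5.31 in GmNAC81-3. Among the transcription factors, MYC2 of jasmonate signalling (Glyma.08G271900) fell by 1.56 in BR16 and by 1.72 in GmNAC81-3 (edgeR adjusted p = 0.000302 and 0.000144). NAP, a NAC factor that promotes leaf senescence in Arabidopsis (Glyma.07G229100), rose in GmNAC81-3 (log2 fold change 2.18, adjusted p = 0.0312) and had a value of 1.23 in BR16 (adjusted p = 0.144). The V3 and R6 groups of D1 and of D2 overlapped in both genotypes, and those of NAP in BR16. Groups did not overlap at 60.2% of all tested loci in BR16 and 52.2% in GmNAC81-3. The loci of this paragraph were picked after seeing the data, and each was called in at least 1 contrast, so their calls are no comparison with D1 and D2. They are only a few of the called loci. Of the study's 63 leaf senescence loci, 31 were called with age in BR16 (15 higher, 16 lower) and 21 in GmNAC81-3 (6 higher, 15 lower).

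**Figure D4:**
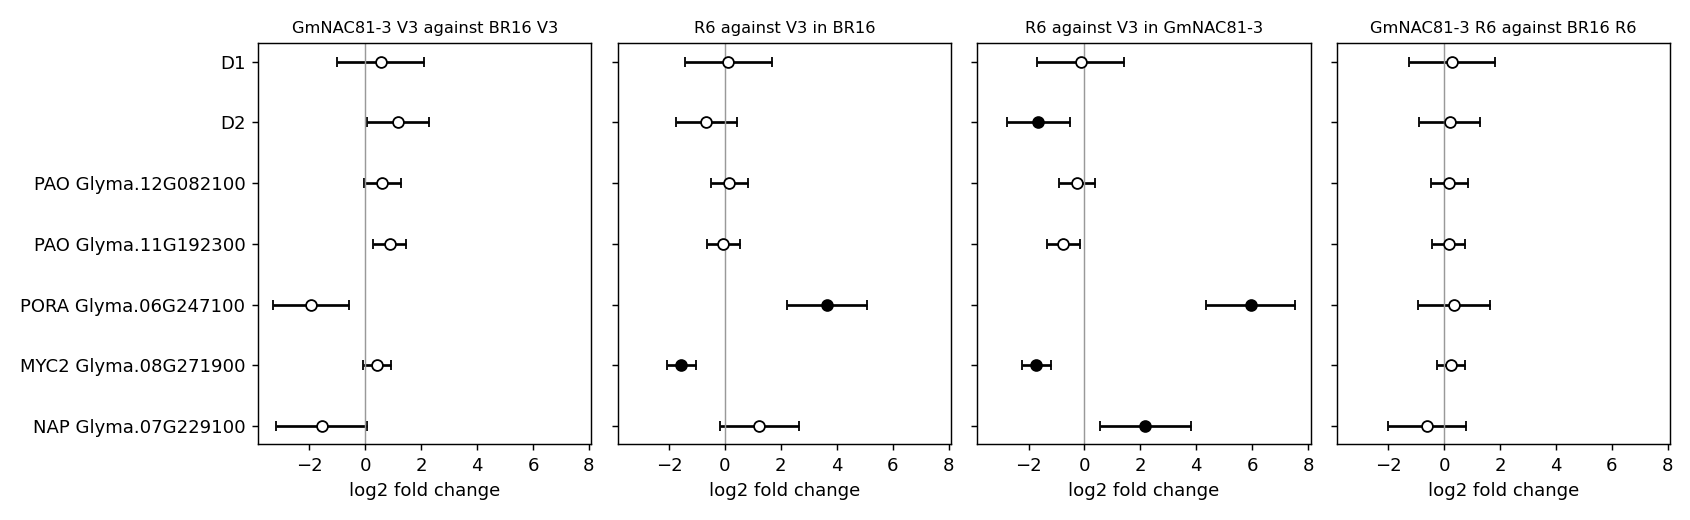
Log2 fold changes with 95% intervals (horizontal axis) of D1, D2, both PAO loci, PORA, MYC2 and NAP in 4 contrasts, from edgeR with 3 libraries per group. Filled points were called, open points were not. D2 is called lower at -1.64 with age in GmNAC81-3, and D1 is called in none of the 4 contrasts.

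The loci most like each gene were sought over the 12 libraries by Pearson's r of log2 CPM among 27393 loci of at least 1 CPM on average, as a description with no test. For D1 they were Glyma.14G148500 (r = 0.967), Glyma.06G234300 (0.966), Glyma.18G020800 (0.953), Glyma.06G130200 (0.951) and Glyma.03G228500 (0.947), none of them annotated in the sources used here. Each had its lowest value in GmNAC81-3 V3 replicate 1 and its second lowest in BR16 V3 replicate 1, as D1 had. Without these libraries, an alternative added after seeing the data, r with D1 over the other 10 libraries was 0.579 to 0.811. Glyma.06G130200 came closest to D1 in size, with 2.05 and 3.60 CPM in those libraries and 13.1 CPM in the highest.

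For D2 the most similar loci were Glyma.17G069900 (r = 0.968), Glyma.18G005100 (0.960), Glyma.02G076700 (0.959), Glyma.17G030600 (0.954) and Glyma.17G254000 (0.952), which were not annotated either. All 5 were highest in GmNAC81-3 V3 replicate 2 or 3, and their r with D2 was 0.957 to 0.989 without the V3 libraries numbered 1. Since these loci were chosen for their likeness to D1 or D2, their own contrasts were not read as results. The lists of the 5 nearest loci shared no locus. D2 itself ranked 2340 among the loci most like D1 (r = 0.558) and D1 ranked 4179 among those most like D2. With GmNAC81, r was 0.170 for D1 and 0.232 for D2.

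**Figure D5:**
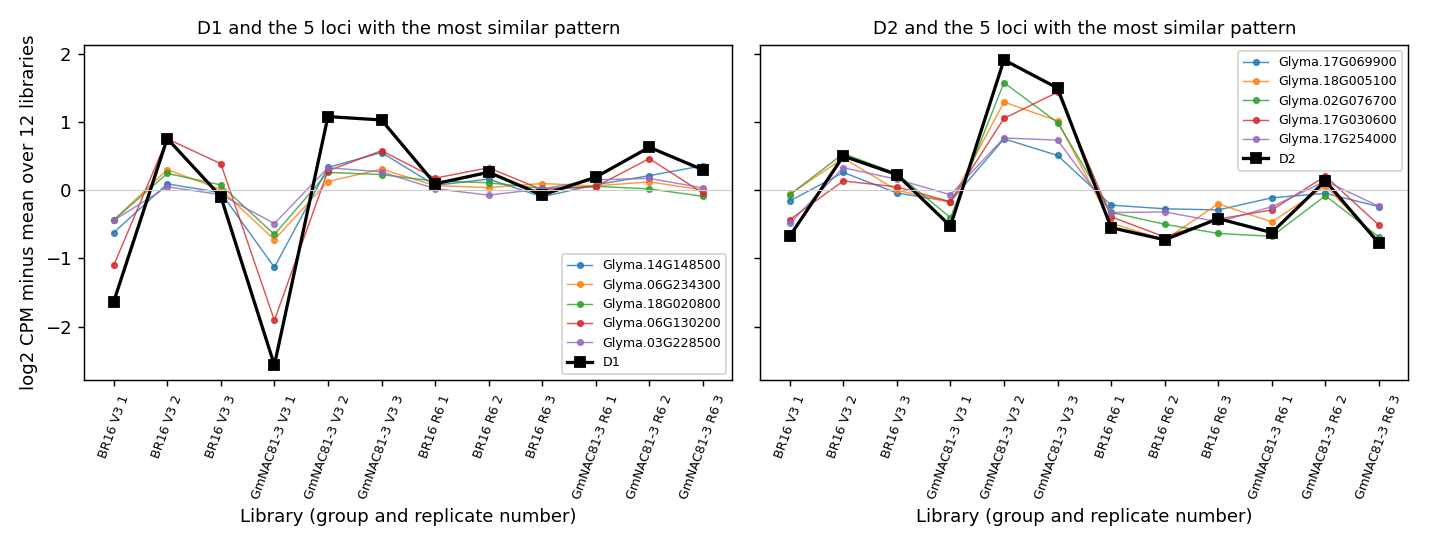
Log2 CPM minus the mean over the 12 libraries for D1 (left, black squares) and D2 (right, black squares) and for the 5 loci with the highest Pearson's r with each (coloured). Libraries are ordered by group and replicate number. The D1 profile has its lowest points in the V3 libraries numbered 1, and the D2 profile has its peak in replicates 2 and 3 of GmNAC81-3 V3.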

How the data were processed

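Per the paper's methods, the authors made stranded paired-end libraries, trimmed reads with Sickle, aligned them to Wm82.a2.v1 using Bowtie 2 and counted them in Rsubread, whereas the submitters' processing notes name HISAT2 2.1.0 and featureCounts. Use of strand in counting is not given in the sources used here. The deposited values are the authors' raw counts for 84782 transcript models, at a depth of 42797825 to 77952663 counts per library.

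Counts were summed per locus, with the entry of a GmNAC81 sequence carrying a terminator, which had counts in BR16 too, added to GmNAC81, and analysed in R 4.3.3 with edgeR 4.0.16 (filterByExpr, TMM, 4 group means, quasi-likelihood test, Benjamini-Hochberg over 39443 loci, log2 CPM with a prior count of 2). Alternatives were DESeq2 1.42.0 (the study's tool), its size factors, no filter or at least 10 counts in every library, fits of only 2 groups, a replicate block, a limit of 0.01 on the adjusted p, no fold limit, counts per model, and each library left out. Fits without TMM and without both V3 libraries numbered 1 were added after seeing the data. The procedure was tested on simulated data.

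Deviations from group means were used to look at whether equal replicate numbers pair libraries. BR16 V3 and GmNAC81-3 V3 libraries of equal number had r of 0.404, 0.221 and 0.129. The numbers may thus pair the V3 libraries, although the labels do not state this and chance was not tested. The mean r of different numbers was -0.121. It is no independent comparison, since deviations cancel within a group and so push this mean to the opposite sign. The reported fits have no block, and the pairing enters only as an alternative. No other pair of groups showed it.

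Genes named are D1, D2, GmNAC81, PAO, a few called loci of the study's senescence table picked after seeing the data, and the 5 loci most like D1 and D2. No gene descriptions could be joined to the locus identifiers, so the wider chlorophyll breakdown list and tissue markers were not analysed, and no sequences are shown. The members and lists were chosen with earlier results of these data known.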

Additional observations from a re-analysis of the deposited data

How the results depend on the processing

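For D1 and D2, the share of D1 and the PAO loci, 483 of the recomputed values kept their direction and their side of the threshold, 14 changed sign, 6 lost and 2 gained the call, and 2 counts of PAO loci moved. The total of 483 is no measure of robustness. Many of these values are counts of PAO loci that stayed at 0. Other limits on adjusted p or fold change reuse the main estimates. With 1 transcript model per gene, the share by model repeats the main test. The fall of D2 with age in GmNAC81-3 was not called at an adjusted p of at most 0.01 (-1.64, adjusted p = 0.0209, edgeR with Benjamini-Hochberg) or without TMM (-0.53). With 1 library left out it ran from -2.07 to -1.17, and only 8 of these 12 fits kept the call (edgeR adjusted p from 0.00091 to 0.0968). In the planned fits with another test, scaling, filter, block or unit, or of only the groups compared, its adjusted p was 0.00403 to 0.0480. With 1 library left out, D2 between genotypes at V3 ran from 0.71 to 1.62 and was called without GmNAC81-3 V3 replicate 1, and without both V3 libraries numbered 1 it was 1.34. With no fold limit 1 PAO locus was lower with age in GmNAC81-3, and with 1 library left out 0 to 1 PAO loci were called higher at V3.

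No fold change of D1 was called under any of these settings, and its sign changed in several fits. With age in GmNAC81-3 it was 0.23 with the replicate block over all 12 libraries, 0.39 with the block in the fit of those groups alone, and 0.92 without TMM (-0.15 relative to the median locus of that fit), and it ran from -0.66 to 0.26 with 1 library left out. In BR16 it ran from -0.29 to 0.77 with 1 library left out and was -0.27 without both V3 libraries numbered 1. Without TMM the D1 value between genotypes at V3 was -0.59 (0.49 relative to the median locus) and that of D2 was 0.06 (1.14 relative to it). The difference between stage effects ran from -0.90 to 0.16 for D1 with 1 library left out, and without TMM it was 0.75 for D1 and 0.011 for D2 (-0.14 and -0.88 relative to the median locus), so relative to the median the signs without TMM were those with it. D2 between genotypes at R6 ran from -0.14 to 0.37 with 1 library left out. The cause of the changes with other libraries or with the block was not tested. With the replicate numbers as a block in the fit of the V3 groups, D1 was 0.19 and D2 0.93 (adjusted p = 0.0880), and the block changed no call of either gene.

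Counts over all loci were 691 higher and 667 lower at V3, against 8 and 6 in a fit of those groups alone, 1434 and 1694 with DESeq2, and 176 and 17501 without TMM. With age they were 5945 and 7731 in BR16 (3578 and 4596 with at least 10 counts in every library, 9390 and 12145 per model) and 6493 and 7917 in GmNAC81-3 (3829 and 5311, 10413 and 12469 per model, 18682 and 3975 without TMM). At R6 26 and 13 were called (0 and 0 with the block in the fit of those groups alone, 122 and 102 with DESeq2). The count of unadjusted p under 0.05 at R6 was 2706 with edgeR.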

Other observations

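The 63 leaf senescence loci that the study lists were all tested, and D1 and D2 are not among them, while NAP and the RCA loci are. The study chose that list on the V3 contrast of these samples, so its direction there is not independent evidence. The same V3 libraries also enter the comparisons with age. Between genotypes at V3, 7 loci were called higher and 1 lower (12.7% against 3.44% of all loci). With age 15 were called higher and 16 lower in BR16 (49.2% against 34.7%, median log2 fold change 0.24), and 6 higher and 15 lower in GmNAC81-3 (33.3% against 36.5%, median -0.05). At R6 0 of the 63 were called between genotypes by edgeR (3 at an unadjusted p under 0.05, and 1 called by DESeq2), where 0.0989% of all loci were.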
